A study of Mus musculus with 2 samples.

Results

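The genes described here are 33 named genes of the ATF4 stress response and of amino acid supply, out of 22421 genes measured in mouse embryonic stem cells. They are a list of names, drawn up with earlier results of these data known, and all 33 were found. Each gene was represented by 1 listed RefSeq transcript, the one with the highest sum of both libraries. By role they were 13 regulators, 9 enzymes, 9 amino acid transporters, and a pair of other targets, the secreted protein gene Stc2 and the lipoprotein receptor gene Vldlr.

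RNA was sequenced from CGR8 cells, a mouse embryonic stem cell line grown without feeder cells on gelatin in serum medium with leukaemia inhibitory factor (LIF). The control group received a negative control siRNA and the other group an siRNA against Set1a, in 2 transfections within 72 hours. Each group held 1 library, and all cells were of this 1 line. The study asked how SET1A, a histone H3 lysine 4 methyltransferase encoded by Setd1a, affects expression across the genome.

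In the integrated stress response, kinases that sense missing amino acids, unfolded protein, viral RNA or lack of haem phosphorylate the translation factor eIF2. General translation initiation then drops, while the Atf4 mRNA is translated more, through upstream open reading frames. ATF4 protein pairs with other basic leucine zipper proteins, such as the C/EBP family, and binds genes for amino acid synthesis, amino acid import and the charging of tRNAs. An mRNA level therefore does not measure how much ATF4 protein a cell holds.

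The authors' values are RPKM, reads per kilobase of transcript scaled to library size. About 6660000 reads lay behind the control siRNA values and about 6420000 behind the Set1a siRNA values. Setd1a itself was at 14.2 RPKM in the control and 11.97 RPKM with Set1a siRNA, a ratio of 0.846 (exact 95% interval 0.746 to 0.959, counting error only). An interval below 1 was also found for 13.8% of all genes averaging 5 RPKM or more, so it does not by itself set Setd1a apart. All 8 pluripotency markers were above 1 RPKM, and they summed to 3982 and 3633 RPKM. Of 22 markers of primitive endoderm, trophectoderm, mesoderm, neural cells and fibroblasts, 7 were above 1 RPKM. These 7 were Tfap2c, Krt8, Krt18, Eomes, Thy1, Pax6 and Sox1, with Tfap2c the highest, at 11.9 and 9.72 RPKM. Cdx2, Elf5, Mesp1, Col1a2, S100a4 and Twist2 were listed at 0 in both. The 3 Zscan4 genes used as markers of 2-cell-like cells summed to 5.33 RPKM in the control and 97.6 RPKM with Set1a siRNA, and their part in the values below was not tested. In bulk RNA, fewer cells of a kind and less RNA per cell cannot be told apart. With 1 library per group no difference has a replicate check and none has a p-value.

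Most of these genes had lower values in the Set1a siRNA library. A gene entered the counts when its mean over both libraries was at least 1 RPKM, which 32 of the 33 reached; Vldlr did not. Of the 32, 28 were lower with Set1a siRNA than with control siRNA and 4 were higher, whereas 48.8% of all 11802 genes above that floor were lower. The median log2((Set1a siRNA RPKM + 1)/(control siRNA RPKM + 1)), called the log2 fold here, was -0.29 for the 32 genes and 0.0063 for all genes. Summed over the 33 genes, 1334 RPKM in the control stood against 1105 RPKM with Set1a siRNA, a ratio of 0.828.

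Counted at 1.5-fold or more on that scale, 8 of the 32 were lower and 0 higher. Of all genes, 1.75% were lower and 2.77% higher by the same rule. The 8 were Nupr1, Chac1, Cebpb, Atf3, Cth, Gpt2, Pycr1 and Pck2. With 5 RPKM added to each value in place of 1, which damps low genes, 3 of them (Chac1, Cth and Nupr1) still passed. At 2-fold, 1 gene, Nupr1, was lower and 0 higher, against 0.407% and 0.771% of all genes.

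A second count used the exact 95% interval of each ratio, from reads recovered out of the RPKM. This interval lay below 1 for 21 of the 32 genes and above 1 for 2 of them, Ddit4 and Cbs. It lay below 1 for 11.3% of all genes and above 1 for 12.2%. Over genes averaging 5 RPKM or more, whose reads give tighter intervals, these shares were 13.8% and 13.2%.

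**Figure D1:**
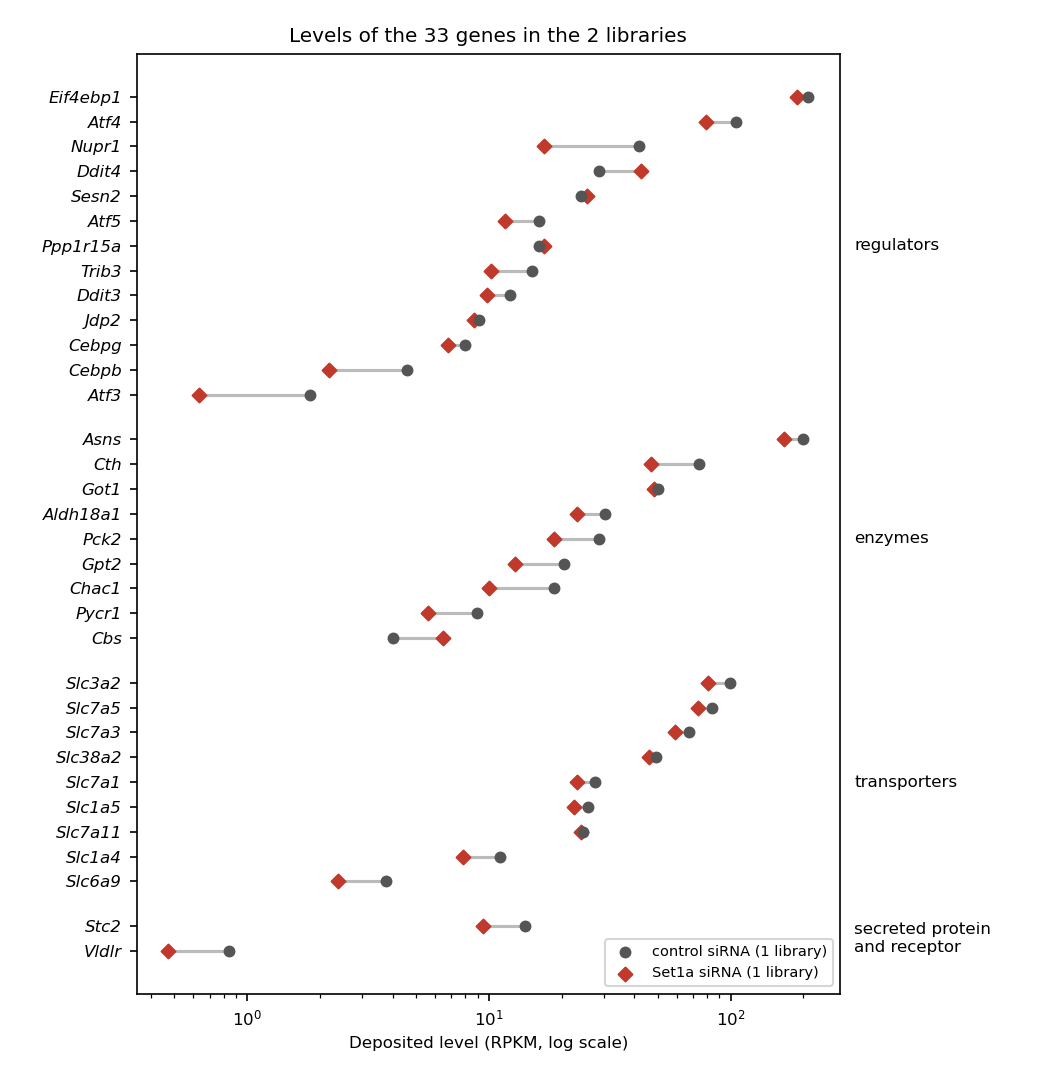
Deposited level of each of the 33 genes (horizontal axis, RPKM on a log scale) in the control siRNA library (grey circles) and the Set1a siRNA library (red diamonds), 1 library each, ordered by control level within each role. The red diamond lies left of the grey circle for 29 of the 33 genes, Vldlr included; Ddit4, Cbs, Sesn2 and Ppp1r15a are the other 4.

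Lower values were found over the whole range of levels. The 7 genes averaging at least 50 RPKM were all lower, with ratios from 0.631 for Cth to 0.898 for Eif4ebp1 and a median of 0.834. Of 17 genes averaging 10 to 50 RPKM, 14 were lower, with a median ratio of 0.803. Of 8 genes averaging 1 to 10 RPKM, 7 were lower, with a median ratio of 0.666, and this group held the widest intervals. All genes in the same 3 ranges had median ratios of 0.990, 0.999 and 1.02.

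The promoters of these genes were searched for the C/EBP-ATF response element, the short sequence through which ATF4 and its C/EBP partners bind target genes. The letters searched were TGATGNAA on either strand, in RefSeq windows of build GRCm38.p6 that run from 250 bases before to 50 bases after each start site. Of the 33 genes, 28 had a window, and 12 of the 28 (42.9%) held a match in at least 1 window. Of all 27025 genes with a window, 4.51% did, and of all 32851 windows 3.97%. The 33 genes were listed by name from the ATF4 response, so a share above that of all genes may reflect how they were chosen. The form TGATGCAA made up 10 of the 13 matches, and TGATGTAA was found in Pck2 and Trib3 and TGATGAAA in Asns. A match is a description of the letters and not a measured binding site.

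The windows below surround the match in 6 of these genes, in 4 of which the gene was below its control level by an interval that does not reach 1 (Atf3, Chac1, Pycr1 and Pck2), beside Got1 and Slc7a11, whose intervals include 1. Each reads 5′ to 3′ on the gene's strand and ends before the start site, and the match is in capitals, as TTGCATCA or TTACATCA where it lies on the opposite strand. The form TGATGCAA is in Atf3, with a ratio of 0.346, and in Got1 and Slc7a11, with ratios of 0.958 and 0.981, in Slc7a11 as a pair of copies.
Atf3 (chr1:191183416-191183463, minus strand): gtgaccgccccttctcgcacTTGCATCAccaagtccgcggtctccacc
Chac1 (chr2:119351029-119351076, plus strand): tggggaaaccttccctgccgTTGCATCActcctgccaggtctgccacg
Pycr1 (chr11:120643824-120643871, minus strand): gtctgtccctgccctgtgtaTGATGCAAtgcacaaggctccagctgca
Pck2 (chr14:55540143-55540190, plus strand): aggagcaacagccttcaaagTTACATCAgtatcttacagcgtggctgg
Got1 (chr19:43524680-43524727, minus strand): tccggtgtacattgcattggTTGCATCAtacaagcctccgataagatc
Slc7a11 (chr3:50443633-50443699, minus strand): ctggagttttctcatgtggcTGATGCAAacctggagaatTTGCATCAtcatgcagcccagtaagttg

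The other 6 genes with a match were Nupr1, Asns, Jdp2, Slc1a4, Trib3 and Vldlr. In Nupr1 the match began 110 bases before the start site, the same distance as in Atf3. All 48 bases around that Nupr1 match, however, lie in an annotated GENCODE M21 exon of Nupr1, as do the 43 around the Asns match and the 48 around the Vldlr match. In Pycr1 and Pck2 the match began 103 bases before the start site and in Got1 102 bases, and in Chac1 193 bases. The Trib3 match lay after the start site, and the Slc1a4 match spanned it. The 11 genes with a match that were above 1 RPKM, Nupr1, Asns, Trib3 and Slc1a4 included, were all lower with Set1a siRNA. Their median log2 fold was -0.53. Of the 16 genes with a window but no match, 12 were lower, with a median of -0.29. Whether the element bears on these values was not tested. Over all genes above 1 RPKM, the 252 with a match had a median of -0.03 with 53.2% lower, and the 9058 without one a median of 0.0088 with 48.2% lower. The cyclic AMP response element, TGACGTCA, a palindrome bound by CREB and ATF dimers, was found in 1 of the 28 genes, Ppp1r15a, 12 bases before the start site, and in 2.03% of all genes.

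**Figure D2:**
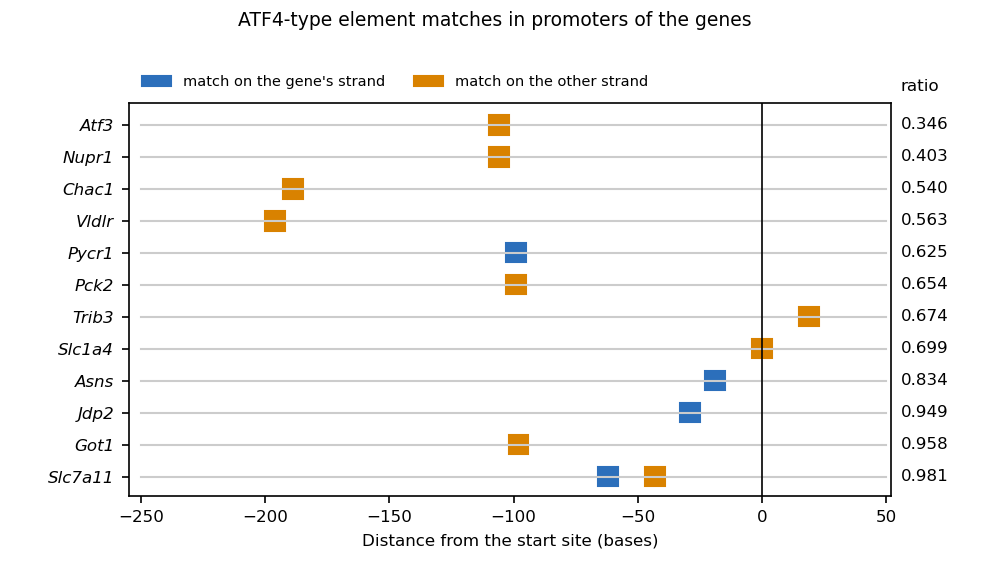
Position of each TGATGNAA-type match (boxes; blue on the gene's strand, orange on the other) relative to the start site at 0 (horizontal axis, bases) in the promoter windows of 12 genes, with each gene's RPKM ratio at the right. Genes are ordered by ratio, from 0.346 for Atf3 to 0.981 for Slc7a11, and matches of 4 genes (Atf3, Nupr1, Pycr1 and Pck2) with ratios up to 0.654, and of Got1 with 0.958, lie between 95 and 110 bases before the start.

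Among the regulators, 10 of 13 were lower and 3 higher; their median log2 fold was -0.29. Atf4, the central transcription factor of the response, was at 106 RPKM in the control and 78.9 RPKM with Set1a siRNA. That is a ratio of 0.747 (0.684 to 0.816), from 1212 and 874 reads. Of the 7941 genes averaging 5 RPKM or more, 3.06% lay below Atf4 in log2 fold. Atf5, a close relative of Atf4 that is also translated through upstream open reading frames, was at 16.1 and 11.7 RPKM (ratio 0.723, interval 0.576 to 0.905). These Atf5 values are of a transcript that RefSeq lists as non-coding. The shorter listed Atf5 transcript, which is listed as coding, was at 10.7 and 7.45 RPKM and gave 0.694. Atf4 and Atf5 thus differed by about the same proportion.

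Nupr1, a small stress-induced chromatin protein gene, had the lowest log2 fold of the 33, at -1.26. It stood at 42.0 RPKM in the control against 16.9 RPKM with Set1a siRNA, with 232 and 90 reads. The ratio was 0.403 (0.312 to 0.515), and 0.063% of genes with at least 5 RPKM lay lower.

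Trib3, a pseudokinase that binds ATF4 and limits its activity, was at 15.1 and 10.2 RPKM (ratio 0.674, interval 0.537 to 0.843). Ddit3, which encodes CHOP, the factor tied to cell death under lasting stress, was at 12.2 and 9.83 RPKM, and with 73 and 56 reads its interval of 0.551 to 1.14 included 1. CHOP is itself a target of ATF4. The depth was too low to separate the Ddit3 values, and some of its reads may be from the overlapping gene Mars, described below.

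Another 4 basic leucine zipper genes were less abundant than Ddit3. Cebpb was at 4.60 and 2.17 RPKM (ratio 0.473, interval 0.268 to 0.809) from 46 and 21 reads. Its exons share 312 bases with Tmem189 on the other strand, which was at 12.7 and 14.7 RPKM, and with no strand rule given some Cebpb reads may be from Tmem189. Atf3, a repressor induced by ATF4, was the scarcest regulator, at 1.82 and 0.631 RPKM (ratio 0.346, interval 0.134 to 0.795) from 24 and 8 reads. Cebpg, which pairs with ATF4 at amino acid genes, was at 7.96 and 6.76 RPKM, and its interval (0.702 to 1.03) included 1. Jdp2, a repressor of AP-1 type sites, was at 9.16 and 8.69 RPKM with an interval of 0.701 to 1.28. The lowest of these 4 ratios belonged to Atf3 and Cebpb, the genes with the fewest reads, and their intervals overlapped those of Cebpg and Jdp2.

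Of the 3 higher regulators, Ddit4 was the one whose interval lay off 1. Ddit4, whose product REDD1 inhibits the growth kinase complex mTORC1, was at 28.6 RPKM in the control and 42.5 RPKM with Set1a siRNA, a ratio of 1.49 (1.29 to 1.71) from 334 and 479 reads. Sesn2, a leucine sensor that also restrains mTORC1, was at 24.2 and 25.4 RPKM, and its interval (0.934 to 1.18) included 1. Ppp1r15a, or GADD34, which directs the phosphatase that reverses eIF2 phosphorylation, was at 16.1 and 17.0 RPKM with an interval of 0.881 to 1.26. Ddit4 and Sesn2 are known to be induced by p53 as well as by ATF4. Removing a trend in GC content and transcript length turned the log2 fold of Sesn2 from 0.07 to -0.03, so its direction was not firm. Eif4ebp1, which encodes the translation repressor 4E-BP1 and was the most abundant of the 33, was at 209 and 188 RPKM (ratio 0.898, interval 0.850 to 0.949). Ddit4, for an inhibitor of mTORC1, and Eif4ebp1, for a translation repressor, therefore lay on opposite sides of 1.

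**Figure D3:**
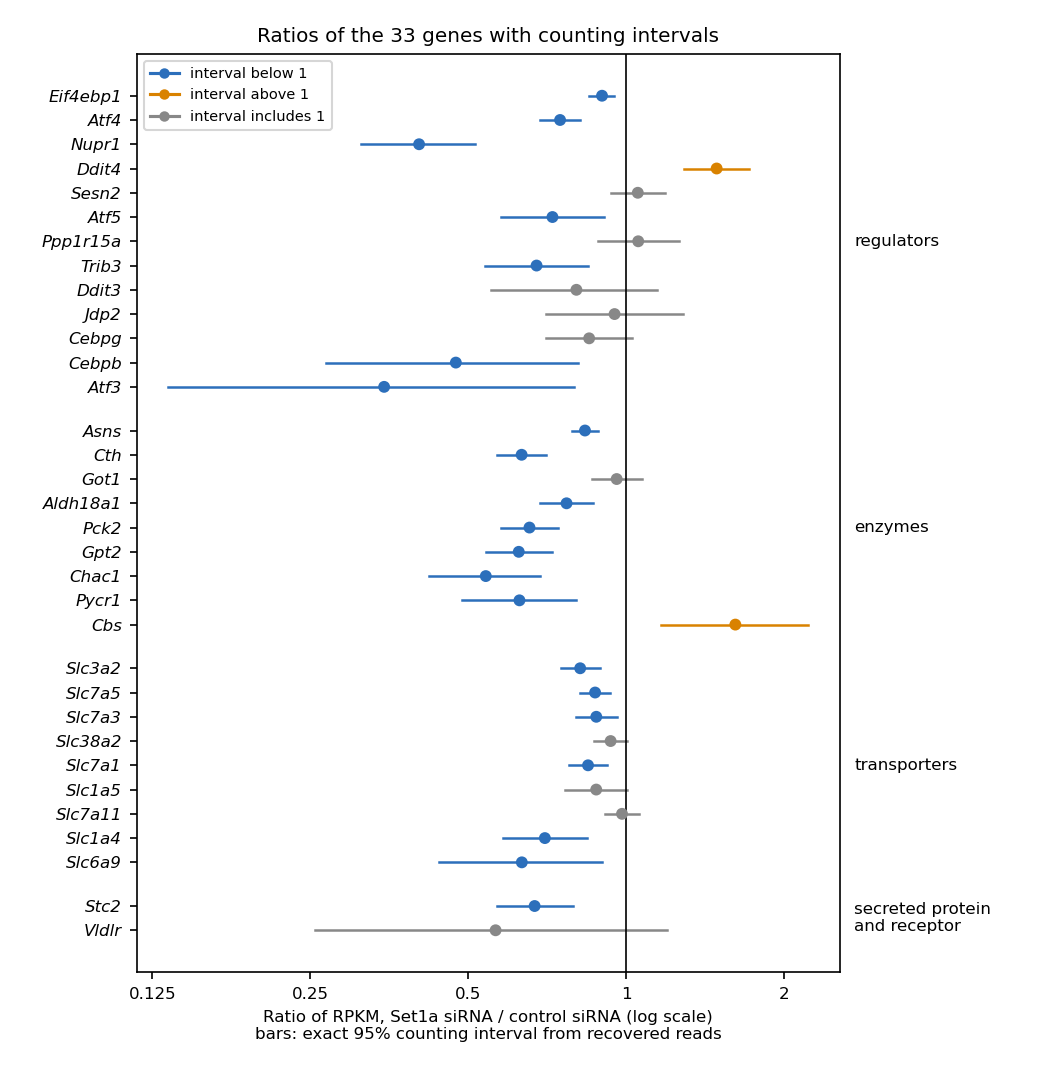
Ratio of RPKM (horizontal axis, log scale; Set1a siRNA over control siRNA) for the 33 genes, with bars for the exact 95% counting interval of recovered reads, in the gene order of the plot of levels. Bars of 21 genes lie below 1 (blue), those of Ddit4 and Cbs above it (orange), and 10 include it (grey, Vldlr among them).

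Of the 9 enzymes, 8 were lower, 5 of them past 1.5-fold, and the median of their log2 folds was -0.59. Of all genes, 48.8% were lower and 1.75% lower past 1.5-fold. Their mean, -0.38, which includes the higher Cbs, was close to the regulators' mean of -0.33, and their median with 5 RPKM added was -0.40. For 7 the interval lay below 1, against 11.3% of all genes. Chac1, which breaks down glutathione, was at 18.6 and 10.025 RPKM (ratio 0.540, interval 0.421 to 0.685), the lowest of this role, from 202 and 105 reads.

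The 2 genes of transsulfuration, the route from homocysteine to cysteine, lay on opposite sides of 1. Its last enzyme, encoded by Cth, was at 74.1 RPKM in the control and 46.8 RPKM with Set1a siRNA, a ratio of 0.631 (0.566 to 0.703) from 895 and 545 reads. Its first enzyme, encoded by Cbs, was far scarcer and higher with Set1a siRNA, at 4.001 and 6.45 RPKM (ratio 1.61, interval 1.16 to 2.22) from 66 and 102 reads. Its other listed transcript gave 1.65. On these per-length levels Cth exceeded Cbs in both libraries, and the values of the 2 genes lay closer together with Set1a siRNA.

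Proline synthesis was lower at both steps measured. Aldh18a1, which starts proline synthesis from glutamate, was at 30.3 and 23.3 RPKM (ratio 0.769, interval 0.685 to 0.864). Pycr1, which completes it, was at 8.97 and 5.61 RPKM (ratio 0.625, interval 0.486 to 0.801).

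Enzymes that link amino acids to central carbon metabolism varied more. Pck2, the mitochondrial phosphoenolpyruvate carboxykinase, was at 28.6 and 18.7 RPKM (ratio 0.654, interval 0.576 to 0.741). Gpt2, the mitochondrial alanine aminotransferase, was at 20.6 and 12.8 RPKM (ratio 0.624, interval 0.539 to 0.722). Got1, the cytosolic aspartate aminotransferase, was at 50.2 and 48.1 RPKM, and its interval (0.859 to 1.07) included 1. Of these 3 the pair of mitochondrial enzymes thus carried the differences. Asns, asparagine synthetase and a classic ATF4 target, was the most abundant enzyme, at 199 and 166 RPKM, and its ratio of 0.834 (0.787 to 0.883) was closer to 1 than those of Cth, Pck2 or Gpt2.

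All 9 transporters were lower, 0 of them past 1.5-fold with 1 RPKM added, and their median log2 fold was -0.20. Their ratios ran from 0.632 for Slc6a9 to 0.981 for Slc7a11, within the range of the enzymes. Of the 9 intervals, 6 lay below 1, against 11.3% of all genes. The roles were not tested against each other. Slc3a2, the heavy chain (CD98) that carries several light chains to the cell surface, was at 99.3 and 81.1 RPKM (ratio 0.816, interval 0.749 to 0.890) from 1202 and 947 reads. Its longer listed transcript gave 0.830. Slc7a5, or LAT1, the light chain that imports leucine and other large neutral amino acids, was at 83.9 and 73.1 RPKM (ratio 0.872, interval 0.816 to 0.931). Slc7a11, or xCT, the light chain that imports cystine in exchange for glutamate, was at 24.5 and 24.1 RPKM from 1505 and 1424 reads, with an interval of 0.912 to 1.06. The heavy chain and one light chain were thus below the control while xCT was within counting error of it, and without the GC and length trend the log2 fold of Slc7a11 changed sign, from -0.03 to 0.02.

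Slc7a1 and Slc7a3, which import the cationic amino acids arginine and lysine, were both lower. Slc7a1 was at 27.5 and 23.3 RPKM (ratio 0.845, interval 0.779 to 0.917). Slc7a3 was the more abundant of the pair, at 67.2 and 58.9 RPKM (ratio 0.876, interval 0.801 to 0.959). Slc7a6 and Slc7a7, from the list of other amino acid transporters described below, were on the higher side. Their ratios were 1.19 (0.954 to 1.48) and 1.06 (0.922 to 1.21), and both intervals included 1. The carriers of small neutral amino acids were more spread than Slc7a1 and Slc7a3. Slc1a4, or ASCT1, was at 11.2 and 7.81 RPKM (ratio 0.699, interval 0.581 to 0.841). Slc1a5, or ASCT2, a glutamine carrier, was at 25.7 and 22.5 RPKM with an interval of 0.765 to 1.003. Slc38a2, or SNAT2, was at 49.4 and 46.1 RPKM with an interval of 0.866 to 1.003. The last pair of intervals thus reached just past 1. Slc6a9, the glycine transporter GLYT1, was the scarcest, at 3.77 and 2.38 RPKM (ratio 0.632, interval 0.440 to 0.899) from 87 and 53 reads. Exons of Slc6a9 share up to 1258 bases with Ccdc24 on the other strand. As no strand rule is given, some of these reads may be from Ccdc24, which was at 0.470 and 0.244 RPKM.

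Stc2, which encodes the secreted glycoprotein stanniocalcin 2, was at 14.2 and 9.47 RPKM (ratio 0.669, interval 0.568 to 0.791) from 371 and 240 reads. Vldlr was at 0.840 and 0.473 RPKM, with 22 and 12 reads and an interval of 0.255 to 1.19, too few reads to separate the values.

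**Figure D4:**
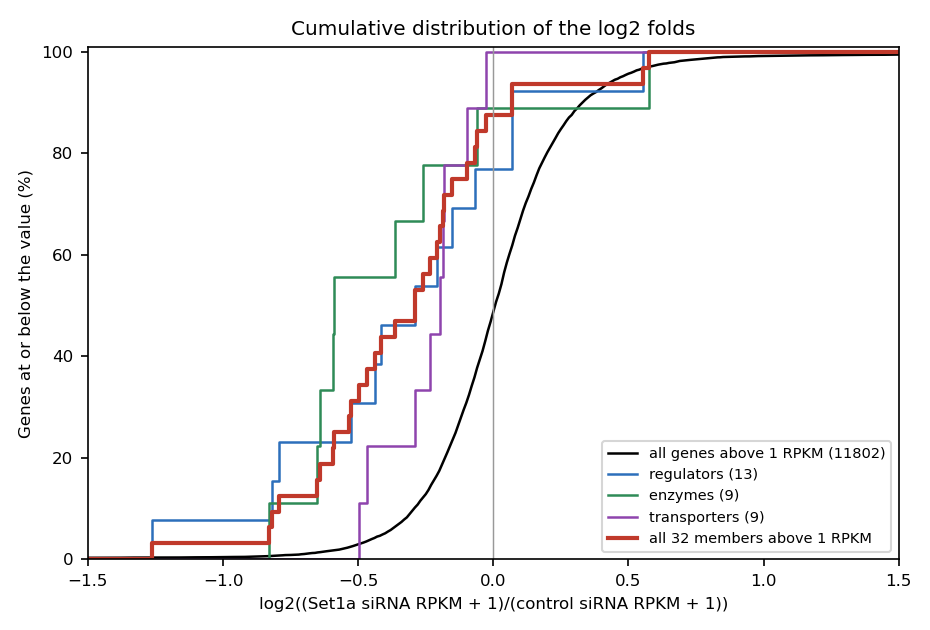
Share of genes (vertical axis, percent) at or below each log2 fold (horizontal axis, Set1a siRNA over control siRNA with 1 RPKM added) for all 11802 genes above 1 RPKM (black), the 32 members (red) and the regulators, enzymes and transporters. At a log2 fold of 0 the black curve stands at about 48.8% and the red one at 87.5%, and the median of the enzymes (green) is -0.59.

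Other genes around the pathway, were taken in 8 lists. The list of eIF2 kinases, eIF2 subunits, the exchange factor eIF2B and related factors had 13 of 16 higher, at a median of 0.08 in log2 fold. That left 18.75% lower, against 48.8% of all genes, and 0 were past 1.5-fold. Of the 16 intervals, 11 included 1, 3 lay above it and 2 below (Ppp1r15b and Eif2a). Of all genes, 12.2% lay above and 11.3% below. All 4 eIF2 kinase genes were on the higher side: the haem sensor gene Eif2ak1 was at 9.27 and 12.1 RPKM (ratio 1.30, interval 1.10 to 1.53), and the endoplasmic reticulum sensor gene Eif2ak3, or PERK, at 3.27 and 4.61 RPKM (ratio 1.41, interval 1.08 to 1.86). The intervals of Eif2ak2, or PKR, and of the amino acid sensor gene Eif2ak4, or GCN2, included 1. Eif2a, a separate initiation factor, was lower, at 56.8 and 46.8 RPKM (ratio 0.824, interval 0.745 to 0.912). Eif2ak2, Eif2ak3, Eif2ak4 and Ppp1r15b were named after their values were seen.

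Serine, glycine and one-carbon synthesis had 11 of 12 lower, against 48.8% of all genes, and a median of -0.24. Gldc, of the glycine cleavage system, was at 58.0 and 35.7 RPKM (ratio 0.616, interval 0.566 to 0.671). It was the only gene of this list past 1.5-fold with 1 RPKM added. The scarce Aldh1l2 had a lower plain ratio, 0.492 (0.302 to 0.784), from 59 and 28 reads. Psat1, of serine synthesis, was at 160 and 109 RPKM (ratio 0.684, interval 0.644 to 0.726). Cytosolic aminoacyl-tRNA synthetases, which charge tRNAs, had 17 of 20 lower, against the same 48.8%, and a median of -0.20, with 0 past 1.5-fold. Their farthest members were Sars, with a ratio of 0.691 (0.642 to 0.744), and Lars, with 0.706 (0.660 to 0.755). Both lists include known ATF4 targets, and the list of other ATF4-linked genes below had 12 of 19 higher. Whether ATF4 bears on any of these lists was not tested.

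The amino acid transporters outside the 33 genes had 13 of 17 above 1 RPKM higher, with a median of 0.08. That left 23.5% lower, against 48.8% of all genes. Of the 17 intervals, 13 included 1, 2 lay above it and 2 below, against 12.2% above and 11.3% below for all genes. With 1 RPKM added, 0 were past 1.5-fold, while the scarce Slc43a1 had a plain ratio of 1.74 (1.06 to 2.97) from 26 and 44 reads. The farthest at 5 RPKM or more were on the lower side, Slc38a1, a glutamine carrier, with a ratio of 0.798 (0.714 to 0.892) and Slc1a3, a glutamate carrier, with 0.784 (0.619 to 0.998). Genes of glutathione synthesis and the methionine cycle had 4 of 10 lower and a median of 0.04. Gclm, a subunit of the first enzyme of glutathione synthesis, was at 17.2 and 22.5 RPKM (ratio 1.31, interval 1.18 to 1.45), and Mpst, of cysteine breakdown, at 24.4 and 16.8 RPKM (ratio 0.686, interval 0.550 to 0.857). The glutathione and methionine list thus had a median near that of all genes, 0.0063. Most of these other transporters were on the higher side, whereas all 9 transporters of the 33 genes were lower.

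Genes of amino acid and growth sensing through mTORC1 had 9 of 20 lower, against 48.8% of all genes, and a median of 0.03. Tsc2, an inhibitor of the pathway, had a ratio of 1.27 (1.12 to 1.43) and Deptor, another, 0.847 (0.759 to 0.947). The other arms of the unfolded protein response had 11 of 16 higher (31.25% lower, against the same 48.8%) and a median of 0.20. Of the 16 intervals, 8 lay above 1 and 2 below (Herpud1 and Atf6), against 12.2% and 11.3% of all genes. Hspa5, the chaperone BiP, was at 84.1 and 118 RPKM (ratio 1.40, interval 1.31 to 1.501), and Sdf2l1, a factor of the same compartment, at 10.6 and 18.8 RPKM (ratio 1.78, interval 1.34 to 2.39). A last list of other genes linked to ATF4, among them stress and autophagy genes, had 12 of 19 higher and a median of 0.11. In it 36.8% were lower, against 48.8% of all genes. In it Ndrg1 was at 8.63 and 15.4 RPKM (ratio 1.78, interval 1.46 to 2.17), and Bbc3, a p53 target that promotes cell death, had 1.44 (1.09 to 1.89). Herpud1, Atf6b and Wars stand in 2 of the lists each.

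**Figure D5:**
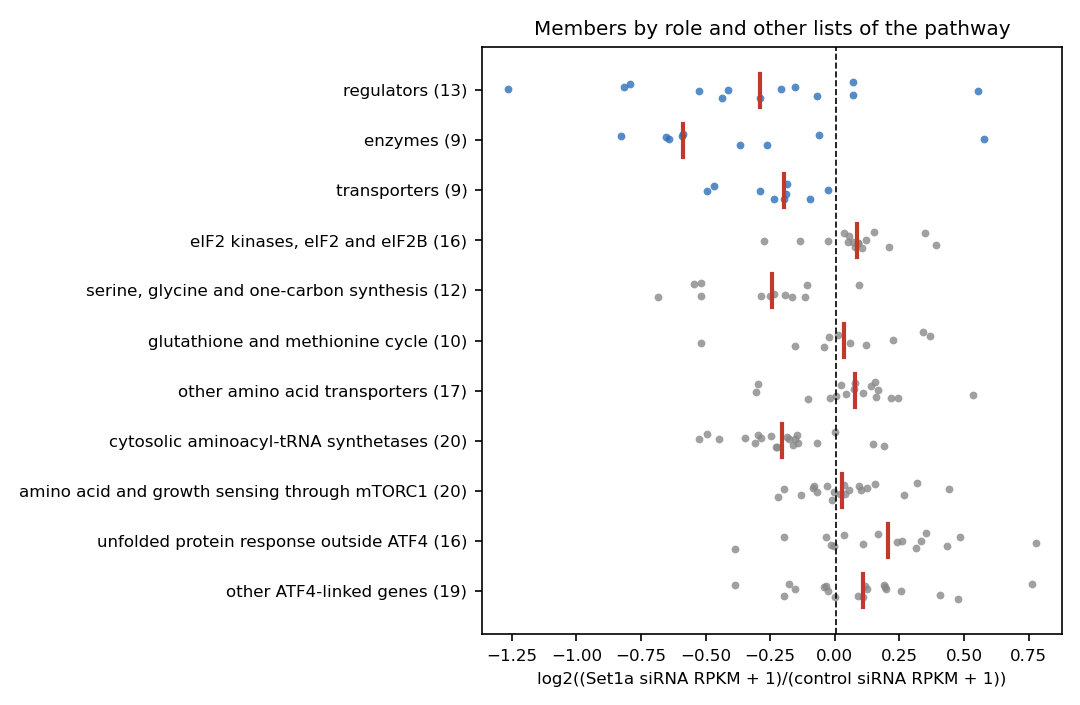
Log2 folds (horizontal axis, Set1a siRNA over control siRNA with 1 RPKM added) of the regulators, enzymes and transporters (blue points, 1 per gene) and of the 8 other lists (grey), with the median of each list as a red bar and the number of genes above 1 RPKM in brackets. The dashed line is the median of all genes, 0.0063; the 3 roles, serine and one-carbon synthesis (-0.24) and tRNA synthetases (-0.20) lie left of it, and the unfolded protein response list (0.20) right of it.

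Some reads may be shared between transcripts of a gene or between overlapping genes. Of the 33 genes, 27 had 1 listed transcript and 6 had more, and each transcript of those 6 lay on the same side of 1 as its gene. The reads recovered for the 2 transcripts of Slc3a2, 1202 and 1549 in the control, overlap if shared reads were counted at each. No other listed gene had a transcript at least 90% identical over at least 50% of the shorter one. Exons of 8 of the 33 genes overlap exons of another gene in GENCODE M21, Cebpb and Slc6a9 among them. Atf5 overlaps Nup62 over 82 bases, and Ddit3 overlaps the tRNA synthetase gene Mars over 68 bases, both on the other strand. Nup62 was at 79.4 and 74.4 RPKM and Mars at 83.4 and 67.1 RPKM. With no strand rule given, some Atf5 and Ddit3 reads may be from these abundant genes.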

How the data were processed

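The 2 deposited tables list 28430 RefSeq transcripts, each with 1 value and no header. The unit of the deposited values, RPKM, was inferred, because value times transcript length moves in whole steps. CASAVA, TopHat, TopHat2 2.0.12, SAMtools 0.1.16 and build mm9 are named, without roles, per the submitters' processing notes. How reads were counted, with or without strand and at repeated sequence, is not given in the sources used here.

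Symbols came from a GRCm38.p6 RefSeq table and GENCODE M21 (98.3% of transcripts), and lengths and GC content from GENCODE M21. Depth was taken from the step of 1 read. Of transcripts with 1 to 5 reads, 74.8% (control) and 73.8% (Set1a siRNA) lay within 0.1 of a whole read, against 20% at random. As the annotation release differs from the authors', reads are approximate: 11 of the 33 genes came out whole in both libraries. Ratios are of RPKM, with exact Clopper-Pearson 95% intervals from rounded reads that cover counting error only.

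Log2 folds used 1 RPKM added and a floor of 1 RPKM on the mean of both libraries. Groups came from the transfection label. With 1 library per group no test was run. The members and lists were chosen with earlier results of these data known, and all 136 entries of the 8 other lists were found. Genes described in full are those whose interval lies off 1, and Atf4; in each other list, the 2 farthest at 5 RPKM or more and any past 1.5-fold there; other names were added after their values were seen. Alternatives were other pseudocounts, floors, scalings, transcript choices and rules of size, and subtraction of a trend, cubic in GC content and in log length. Promoter sequences are RefSeq's; 28 of the 33 genes matched. Near-identical transcripts were sought with BLAST 2.17.0 among those of at least 200 bases. Scripts were tested on simulated Poisson counts. Python 3.11.15, NumPy 2.4.6, pandas 2.3.3, SciPy 1.17.1 and matplotlib 3.10.9 were used.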

Additional observations from a re-analysis of the deposited data

How the results depend on the processing

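The 8 genes lower by at least 1.5-fold became 3 with 5 RPKM added, 1 by the 2-fold rule and 21 by the counting interval; other settings gave 6 to 9. The 0 higher became 1 (Cbs) with 0.1 RPKM added, without the 50 most abundant genes in scaling, with the transcript of most reads or with transcripts summed, and 2 by the interval. Of all genes, 1.75% lower and 2.77% higher became 3.41% and 5.45% with 0.1 RPKM added, 0.424% and 0.746% with 5 RPKM added, 0.869% and 1.49% with a floor of 5 RPKM, 0.407% and 0.771% by the 2-fold rule, and 11.3% and 12.2% by the interval. The pseudocounts, floors and rules shift counts by their construction, and Cbs, at a log2 fold of 0.58 as reported, lies beside the threshold. The median of the members ranged from -0.33 (as a mean) to -0.25 (5 RPKM added), and 28 of 32 were lower in each setting that kept 32. By role, the values ranged from -0.33 to -0.21 for regulators, -0.61 to -0.38 for enzymes and -0.25 to -0.18 for transporters. Of 231 values of single members under other settings, 2 changed sign, those of Sesn2 and Slc7a11 with the GC and length trend removed. No paired analysis was possible because there was 1 library per group. Depth limits Atf3, Vldlr, Cebpb and Ddit3 most.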
